A study of Mus musculus with 6 samples.

Results

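The flavin monooxygenase genes described here were Fmo1, Fmo2, Fmo4 and Fmo5, 4 of 22180 genes that had their own probe on the array, chosen by name. Each had 1 probe (a transcript cluster of the array), none shared with another symbol. All 4 lay at or above the median level of all probes, 2.65 on the log2 scale, and so were among the 13493 genes tested. Liver RNA of male C57BL/6 mice was measured on 6 arrays. The mice were aged 8 weeks when acclimatisation began. A group of 3 arrays came from mice given vehicle for 7 days and a group of 3 from mice given Vascepa for 7 days, and both groups then had high-fat diet for 6 weeks. Vascepa is a drug made of icosapent ethyl, an ethyl ester of eicosapentaenoic acid, which is an omega-3 fatty acid of fish oil. The diet was common to both groups, so the comparison concerns the earlier Vascepa on that diet. The labels do not state that each array was a different animal. The p-values therefore refer to the spread among these samples, part of which may be technical.

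Flavin monooxygenases are enzymes of the endoplasmic reticulum membrane that hold FAD, take electrons from NADPH and place an oxygen atom from molecular oxygen on nitrogen or sulfur atoms of small molecules. In liver they work beside the cytochrome P450 enzymes on drugs, plant alkaloids and amines from the diet. FMO1 has a broad range of substrates, remains in use in adult mouse liver and also oxidises hypotaurine to taurine. FMO2 is best known as the form of lung, and FMO4 is the least studied. FMO5 differs from its relatives in acting on ketones by Baeyer-Villiger oxidation, and mice that lack it are lean.

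In the mouse name table of RefSeq (GRCm38.p6), Fmo4, Fmo1, Fmo2 and Fmo6 follow each other on chromosome 1 with no other protein-coding gene between them. Fmo9 lies apart from that row on the same chromosome, and Fmo5 lies on chromosome 3. Fmo1, Fmo2 and Fmo4 of that row and Fmo5 gave values on opposite sides of 0 in the comparison below, where none passed the test. The stretches that precede the annotated starts of Fmo2, Fmo4 and Fmo5 are shown as a description, from RefSeq's GRCm38.p6. Each has 250 bases and runs 5′ to 3′ on the strand of the gene. A link between these sequences and the values was not tested. No stretch of Fmo1 was analysed here, so the sequence comparison covers 2 of the 3 members with a lower mean. For Fmo2, which has more than 1 annotated start, the stretch before the most upstream start is given. They lie at chr1:162898759-162899008 on the minus strand, chr1:162812550-162812799 on the minus strand and chr3:97628769-97629018 on the plus strand. Capitals mark matches, on either strand, to the TATA box TATAAA, the CCAAT box CCAAT, the GC box GGGCGG, the xenobiotic response element core GCGTG or the antioxidant response element core TGACNNNGC.
Fmo2: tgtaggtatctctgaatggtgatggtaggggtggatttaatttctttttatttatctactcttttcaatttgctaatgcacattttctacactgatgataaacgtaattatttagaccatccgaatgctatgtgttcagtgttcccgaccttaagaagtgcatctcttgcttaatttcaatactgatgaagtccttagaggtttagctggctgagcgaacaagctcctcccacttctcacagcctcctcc
Fmo4: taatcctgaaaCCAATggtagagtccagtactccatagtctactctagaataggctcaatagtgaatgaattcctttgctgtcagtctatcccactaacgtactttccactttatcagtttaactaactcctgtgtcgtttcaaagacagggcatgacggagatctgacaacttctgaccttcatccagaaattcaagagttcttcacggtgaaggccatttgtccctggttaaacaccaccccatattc
Fmo5: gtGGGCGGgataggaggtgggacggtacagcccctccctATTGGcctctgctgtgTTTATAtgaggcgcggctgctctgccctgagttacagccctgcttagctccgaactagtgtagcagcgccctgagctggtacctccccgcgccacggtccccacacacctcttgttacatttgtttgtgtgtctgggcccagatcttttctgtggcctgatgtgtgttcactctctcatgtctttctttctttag

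The Fmo5 stretch held more G and C than the other two, 56.0% of bases against 39.6% in Fmo2 and 42.4% in Fmo4, where the median of 32851 such stretches was 52.4%. It had 9 CpG dinucleotides, Fmo2 and Fmo4 had 4 each, and the median was 6. The stretch before another annotated start of Fmo2, not printed here, held 47.6% G and C and 5 CpG dinucleotides. Fmo5 held a GC box 248 to 243 bases before the start, a CCAAT box on the opposite strand 211 to 207 bases before it and a TATA box on the opposite strand 195 to 190 bases before it. Fmo4 held a CCAAT box 239 to 235 bases before the start, and the Fmo2 stretch held no match to the 5 motifs. Across all stretches 12.4% held TATAAA, 33.8% CCAAT, 32.7% GGGCGG, 28.2% GCGTG and 10.2% TGACNNNGC. No matches overlapped in these 3 stretches. A match is a run of letters and does not show that a factor binds there. Distances refer to the annotated starts, and whether transcription begins at them in liver was not tested.

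Fmo1, Fmo2 and Fmo4 had lower means in Vascepa livers and Fmo5 had a slightly higher one, and none of the 4 passed the test. Of all genes tested, 60.1% were lower in the mean, beside 3 of these 4. This share varied with level. Past a filter at the 75th percentile of level, which Fmo4 did not reach, it was 73.3%, and without a filter it was 49.8%. The groups did not overlap in 8.24% of all genes and in 0 of these 4. At a Benjamini-Hochberg adjusted p under 0.05, limma called 0 of the 4 members and 0% of all genes. At an unadjusted p under 0.05 it called 0 members and 2.68% of all genes, 362 in number. The median difference of all genes was −0.06 on the log2 scale, and −0.14 for genes past the 75th percentile filter. Fewer cells of a type and less RNA per cell cannot be told apart in these tissue samples. With array quality weights, which gave nearly all weight in the Vascepa group to replicate 2, all 4 members passed and so did 30.4% of all genes.

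**Figure D1:**
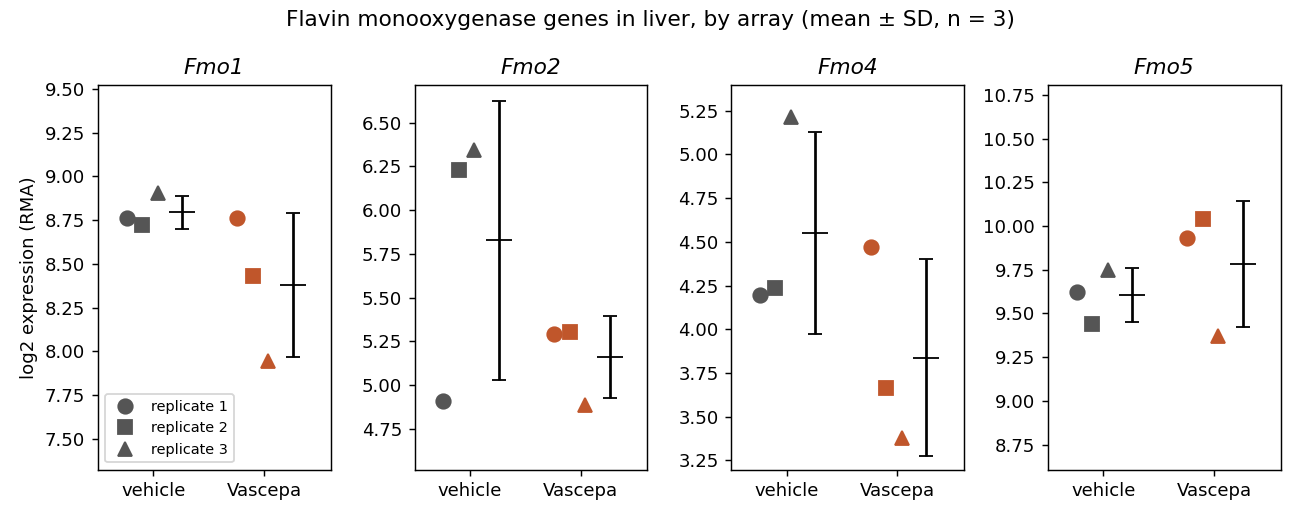
Log2 expression of Fmo1, Fmo2, Fmo4 and Fmo5 on each array (symbols stand for replicates 1 to 3, grey for vehicle and orange for Vascepa), with the group mean and SD in black. Each panel spans the same log2 range but its own levels, and the groups overlap in all 4 genes.

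Fmo1, the broad-range enzyme, had log2 levels of 8.76, 8.72 and 8.90 with vehicle (replicates 1, 2 and 3) and of 8.76, 8.43 and 7.94 with Vascepa (replicates 1, 2 and 3). Vascepa replicate 1 lay within the vehicle range, and Vascepa replicates 2 and 3 lay below it. The mean level was 8.80 ± 0.09 (SD, n = 3) in vehicle and 8.38 ± 0.41 (SD, n = 3) in Vascepa livers. The log2 difference was −0.42 ± 0.24 (SE), or 1.34-fold lower, with a 95% interval from −0.96 to 0.13 (limma, adjusted p = 0.976). Without Vascepa replicate 3 the difference was −0.20, and without Vascepa replicate 1 it was −0.61.

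Fmo4 had log2 levels of 4.20, 4.24 and 5.22 with vehicle and 4.47, 3.67 and 3.38 with Vascepa, in replicate order. Vehicle replicate 3 was the highest of the 6, Vascepa replicate 1 came next, and Vascepa replicates 2 and 3 were the lowest. The means were 4.55 ± 0.58 and 3.84 ± 0.57 (SD, n = 3 each). The log2 difference of −0.71 ± 0.37 (SE), or 1.64-fold lower, had a 95% interval from −1.57 to 0.14 (limma, adjusted p = 0.976). Without vehicle replicate 3 the difference was −0.38, without Vascepa replicate 3 it was −0.48, and without Vascepa replicate 1 it was −1.03.

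Fmo2 had log2 levels of 4.91, 6.23 and 6.34 with vehicle and 5.29, 5.30 and 4.89 with Vascepa. Vehicle replicates 2 and 3 lay above every Vascepa array, while vehicle replicate 1 lay among them. The spread was thus wider in vehicle livers, with means of 5.83 ± 0.80 and 5.16 ± 0.24 (SD, n = 3 each). The log2 difference was −0.67 ± 0.38 (SE), or 1.59-fold lower, with a 95% interval from −1.54 to 0.21 (limma, adjusted p = 0.976). Without vehicle replicate 1 it was −1.13, and vehicle and Vascepa arrays then no longer overlapped, while without vehicle replicate 3 it was −0.41. Fmo2 missed the adjusted threshold with any 1 array left out (limma, adjusted p from 0.403 to 0.9999).

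Fmo5, the ketone-oxidising form, had log2 levels of 9.62, 9.44 and 9.75 with vehicle and 9.93, 10.04 and 9.37 with Vascepa. Vascepa replicates 1 and 2 lay above all vehicle arrays and Vascepa replicate 3 lay below them. The means were 9.60 ± 0.16 and 9.78 ± 0.36 (SD, n = 3 each). The log2 difference of 0.18 ± 0.23 (SE) had a 95% interval from −0.35 to 0.70 (limma, adjusted p = 0.976). Without Vascepa replicate 3 the difference was 0.38, and without Vascepa replicate 2 it was 0.05.

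**Figure D2:**
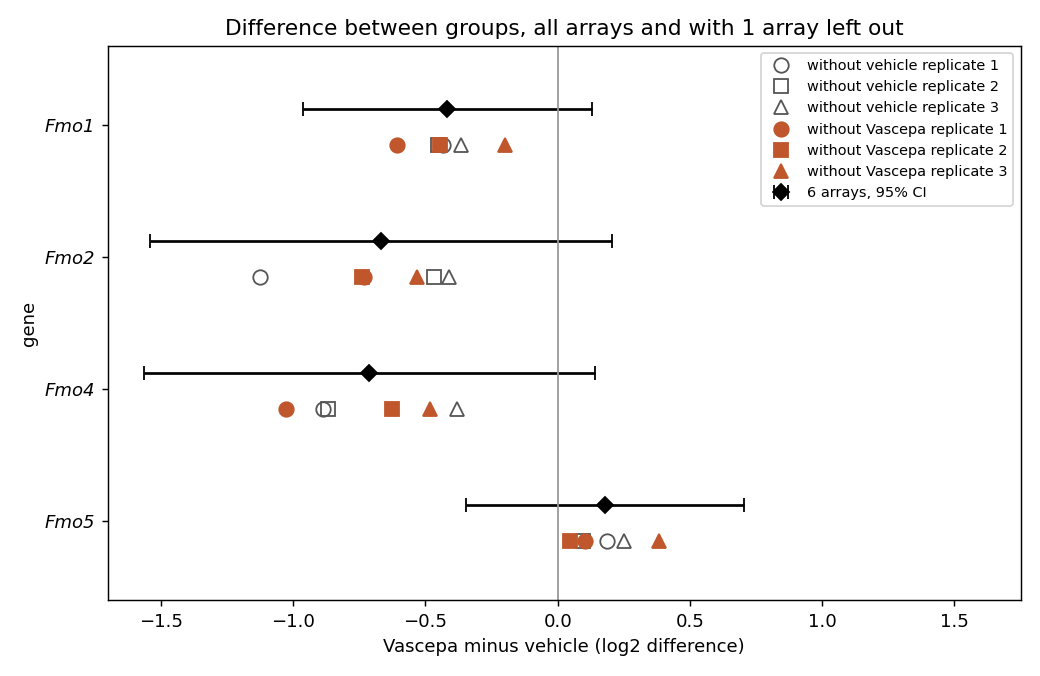
Vascepa minus vehicle difference (log2) for each gene. Diamonds with bars are all 6 arrays with limma's 95% interval, and the other symbols leave out 1 array each. The intervals of all 4 genes include 0, Fmo1, Fmo2 and Fmo4 stay below 0 with any array left out, and Fmo5 stays above it.

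All 4 genes were lowest on Vascepa replicate 3, the array that stood farthest from the others, with a mean correlation of 0.948 with them against 0.965 to 0.971 for the other 5. It also had the highest level of small nucleolar RNAs, with a mean log2 level over 67 such genes of 7.54 against 5.82 to 6.99 on the other arrays. Fmo1 was lowest on the 3 arrays highest in these RNAs, which were Vascepa replicates 3 and 2 and vehicle replicate 2. With that score as a covariate the difference was −0.26 in Fmo1, −0.47 in Fmo4, −0.71 in Fmo2 and 0.29 in Fmo5.

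The tissue label was checked on 12 hepatocyte markers, among them Alb, Ttr and Apoa1, whose log2 levels averaged 11.17, 10.97 and 11.07 with vehicle and 11.17, 11.03 and 10.54 with Vascepa. Of these markers 10 were lower in Vascepa livers and 2 higher, and 0 passed the adjusted threshold. Markers of stellate cells and fibroblasts were lower in 7 of 9 tested cases. Their mean levels, over 10 markers with the untested Des included, were 5.17 to 5.29 on the vehicle arrays and 4.90 to 5.29 on the Vascepa arrays. Kupffer cell markers were lower in 11 of 12 cases, at 6.22 to 6.30 on the vehicle arrays and 5.81 to 6.23 on the Vascepa arrays. Sinusoidal endothelial markers were lower in 8 of 10 cases, at 6.51 to 6.67 and 6.25 to 6.63. Beside these counts, 60.1% of all genes tested were lower in the mean. At an unadjusted p under 0.05 limma called 3 of the 12 Kupffer cell markers and 2.68% of all genes. It called 0 markers of hepatocytes, sinusoidal endothelium or stellate cells and fibroblasts at that level, and 0 Kupffer cell markers passed the adjusted threshold. Of the markers tested, 4 of 5 of skeletal muscle, 3 of 3 of pancreatic acinar cells, 3 of 4 of cholangiocytes and 1 of 3 of adipocytes were higher. These counts are no measure of other tissue in the samples, since some of the genes lay near the cut of 2.65. The acinar gene Clps averaged 2.51 with vehicle and 3.03 with Vascepa, and so reached the cut only through the Vascepa arrays. The median of all probes was 2.81 on Vascepa replicate 3 and 2.62 to 2.70 on the other arrays. The acinar genes Prss2 and Cpa1 and the adipocyte hormones Adipoq and Lep lay below the median level of all probes. The part of cell makeup in the values of the Fmo genes was not tested.

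Whether the genes moved differently from each other was asked within each array, where a shift common to all genes of the array cancels. The log2 difference between Fmo1 and Fmo5, set to a mean of 0 over the vehicle arrays, was −0.05, 0.09 and −0.04 on vehicle replicates 1, 2 and 3 and −0.36, −0.80 and −0.62 on Vascepa replicates 1, 2 and 3. All Vascepa arrays lay below all vehicle arrays. The changes of Fmo1 and Fmo5 differed by −0.60 (exact two-sided permutation test over the arrays, p = 0.10, the smallest that 3 against 3 can give, and 0.30 adjusted over the 6 pairs of members). The difference between Fmo4 and Fmo5 was −0.37, −0.15 and 0.52 with vehicle and −0.41, −1.32 and −0.94 with Vascepa, again without overlap, though vehicle replicate 1 and Vascepa replicate 1 were close. The changes of Fmo4 and Fmo5 differed by −0.89 (exact two-sided permutation test, p = 0.10, 0.30 adjusted).

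The other 4 pairs overlapped. Fmo2 against Fmo5 differed by −0.85 in the mean, with vehicle replicate 1 at −0.94 among Vascepa values from −0.96 to −0.71 (exact two-sided permutation test, p = 0.30, 0.60 adjusted). Among Fmo1, Fmo2 and Fmo4, the neighbours on chromosome 1, the changes differed by 0.04 to 0.29 (exact two-sided permutation tests, p from 0.50 to 0.90). This does not show that these 3 genes changed alike, since their differences from each other ranged over more than 1 log2 unit between vehicle arrays in the pair Fmo1 and Fmo2, from −0.48 to 0.89.

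**Figure D3:**
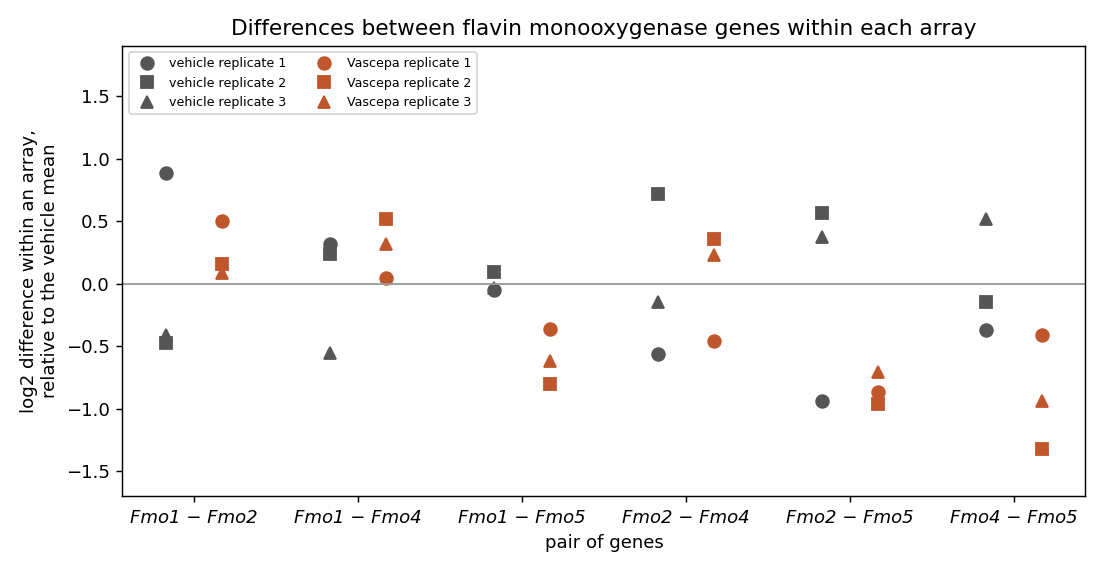
Log2 difference between 2 genes within each array, relative to the mean of the vehicle arrays, for the 6 pairs of members (grey for vehicle, orange for Vascepa, symbols for replicates 1 to 3). Vascepa and vehicle arrays separate in Fmo1 against Fmo5 and in Fmo4 against Fmo5 and overlap in the other 4 pairs.

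Fmo6 and Fmo9, relatives with a probe of their own, lay below the median level of all probes and were not among the genes tested. Fmo6 ranged from 1.54 to 2.10 (log2 level) on the vehicle arrays and from 1.83 to 2.17 on the Vascepa arrays. Fmo9 ranged from 2.09 to 2.90 and from 2.28 to 2.34. In a fit without the intensity filter they differed by 0.10 ± 0.20 and −0.14 ± 0.22 (SE; limma, adjusted p = 0.972 and 0.967). Fmo genes are relatives in sequence, and binding of RNA of 1 gene to the probes of another was not tested.

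The genes most like each member over the 6 arrays were ranked by Pearson's r of log2 levels among 12240 named genes, as a description of 6 points that share arrays and normalization. Fmo1 ran closest to Ephx1, the microsomal epoxide hydrolase (r = 0.9998), then to the kinase gene Vrk1 (r = 0.999) and the zinc finger gene Repin1 (r = 0.999). Ephx1 had log2 levels of 8.11, 8.07 and 8.25 with vehicle and 8.10, 7.72 and 7.18 with Vascepa, with Vascepa replicate 1 again in the vehicle range and replicate 3 lowest. It differed by −0.48 ± 0.25 (SE) and did not pass (limma, adjusted p = 0.976).

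Fmo2 ran closest to the kinase gene Cdk10 (r = 0.991), to Slc22a4, a carrier of ergothioneine (r = 0.985), and to Atp6v1c1, a proton pump subunit (r = 0.984). For Fmo4 the nearest were the ubiquitin ligase genes Rnf185 (r = 0.995) and Herc6 (r = 0.991) and the zinc finger gene Champ1 (r = 0.988). Fmo5 was nearest to Slc13a4, a sulfate carrier (r = 0.988), Ranbp9 (r = 0.986) and Prkdc, a kinase of DNA repair (r = 0.984). Among the members, r was 0.872 between Fmo1 and Fmo4, 0.699 between Fmo2 and Fmo4, 0.578 between Fmo1 and Fmo2, and from −0.02 to 0.353 between Fmo5 and the others.

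Genes around the flavin monooxygenase reaction were mostly lower in the mean in Vascepa livers, and 0 members of any of the 6 lists passed (limma, adjusted p under 0.05). Of all genes tested 60.1% were lower too, and 73.3% of those past the 75th percentile filter, with medians of −0.06 and −0.14. All 8 genes of taurine and cysteamine metabolism, which supplies and follows the hypotaurine that FMO1 oxidises, were lower in the mean, with a median difference of −0.20. Gadl1 and Baat hardly differed, at −0.004 and −0.02. Slc6a6 was 4.41 (log2 level) on Vascepa replicate 3 and 5.76 to 6.91 on the other arrays. Ado was 3.67 on that array and 4.25 to 4.78 on the others. Vnn1, a pantetheinase that releases cysteamine, had log2 levels of 7.88, 8.62 and 8.49 with vehicle and 7.35, 7.53 and 7.67 with Vascepa, without overlap. It differed by −0.81 ± 0.24 and its relative Vnn3 by −0.24 ± 0.19 (SE), and neither passed (limma, adjusted p = 0.976 for both). Vnn1 is also a target of PPAR alpha. It was named because its p was the smallest of its list, a choice that favours groups without overlap. Of all genes tested, 8.24% had groups that did not overlap.

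Enzymes of choline and methylamine metabolism included 6 of 7 genes with a lower mean, and their median difference was −0.20. Sardh, which demethylates sarcosine, differed by −0.68 ± 0.46 and Chdh, which oxidises choline, by −0.30 ± 0.25 (SE). Sardh was 7.72 (log2 level) on Vascepa replicate 3 and between 9.10 and 9.73 on the other 5 arrays. Of 9 measured genes that supply NADPH, the electron donor of the reaction, 8 were lower, with a median of −0.25. Idh2, the mitochondrial NADP-dependent isocitrate dehydrogenase, had log2 levels of 8.16, 8.02 and 8.14 with vehicle and 7.62, 7.83 and 7.86 with Vascepa, without overlap, and differed by −0.34 ± 0.17 (SE). Idh2 was named for the smallest p of its list, and 8.24% of all genes tested also had groups without overlap. Pgd, of the pentose phosphate pathway, differed by −0.68 ± 0.38 (SE) with overlapping groups. G6pdx and Tkt were not analysed here.

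Reductases that undo oxidation of sulfur and nitrogen, such as the methionine sulfoxide reductases, were lower in 5 of 10 cases and higher in 5, with a median of −0.03. Cyb5b and Cyb5r3, which pass electrons to the amidoxime reducing enzymes, differed by −0.53 ± 0.28 and −0.29 ± 0.27 (SE). Other enzymes and electron donors of drug and amine metabolism had a median difference of −0.13, with 5 of 8 lower. They include Ephx1, described above, which is a hydrolase and not an oxidase, and Maob, a mitochondrial amine oxidase, at −0.51 ± 0.38 (SE). Transcription factors of hepatocytes had a median difference of −0.38, with 13 of 14 lower. All of the 14 except Esr1, Nr1h4 and Nr1i3 were lowest on Vascepa replicate 3. Hnf4a had log2 levels of 8.84, 8.52 and 8.67 with vehicle and 9.10, 8.16 and 7.65 with Vascepa. Ppara had 7.75, 7.59 and 7.82 with vehicle and 7.89, 7.43 and 6.70 with Vascepa. In both genes Vascepa replicate 1 lay above every vehicle array. Nr1i2, which encodes the drug sensor PXR, had log2 levels of 7.04, 7.18 and 7.02 with vehicle and 6.60, 6.54 and 5.96 with Vascepa, without overlap. Nr1i2 differed by −0.71 ± 0.22 and Foxa3 by −0.38 ± 0.24 (SE), and neither passed (limma, adjusted p = 0.976 for both). The choice of Nr1i2 likewise rested on the smallest p of its list, beside 8.24% of all genes tested without overlap.

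**Figure D4:**
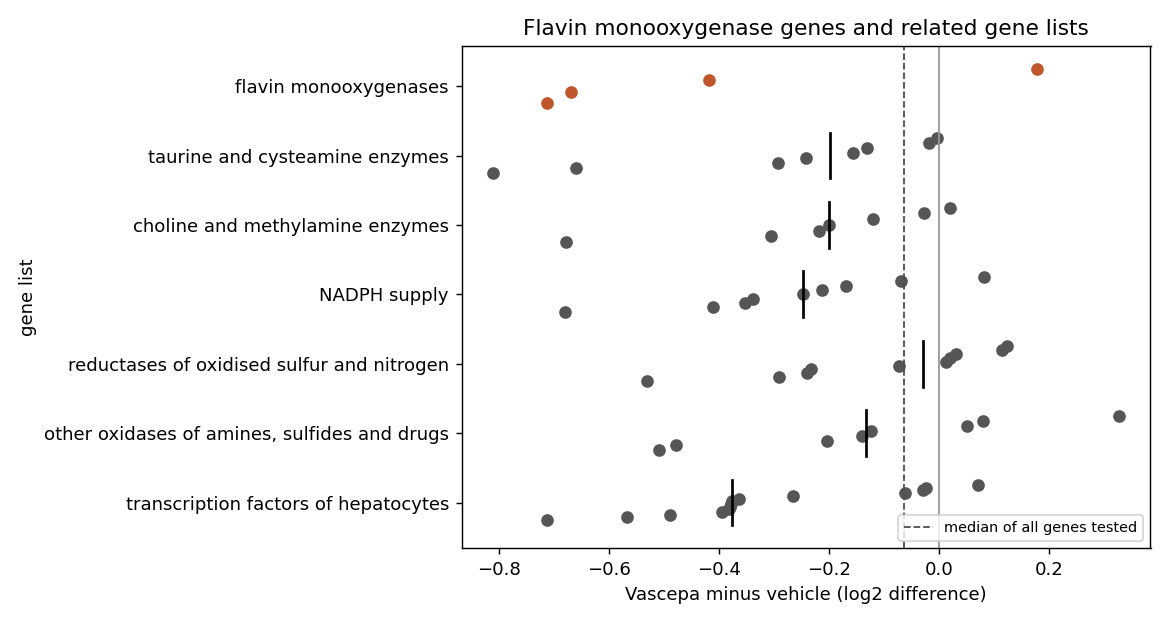
Vascepa minus vehicle difference (log2) of each tested gene, for the 4 flavin monooxygenase genes (orange) and 6 related lists (grey, black bar for the list median). The dashed line is the median of all 13493 genes, −0.06, and the list medians lie between −0.38 and −0.03.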

How the data were processed

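The deposited table holds log2 values for each array and transcript cluster. The authors made them with Affymetrix Expression Console and RMA per the submitters' processing notes. RMA corrects background, quantile-normalizes the arrays and compresses differences of dim genes. Tool versions and the array's genome build are not given in the labels used here.

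Of 41345 probes, 23521 had 1 gene symbol in the platform annotation, 1814 had several and 16010 had none. Of the probes with 1 symbol, 23328 had a gene ID found in RefSeq's GRCm38.p6 table and took the symbol given there, changed or not. The brightest probe stood for each gene, and genes whose mean reached the median over all probes were tested. The groups were compared with limma 3.58.1 (R 4.3.3; functions lmFit and eBayes) without covariates, and p-values were Benjamini-Hochberg adjusted over 13493 genes. The procedure was tested on simulated data. Pairs of members were compared by exact permutation. Precision is limited by having 6 arrays.

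The members and lists were chosen with earlier results of these data known. The 4 members, Fmo6 and Fmo9 were named whatever their values, with the 2 members of smallest p in each list and the 3 genes most like each member (predicted genes, clones and small RNAs left out). Values of further list genes were given only to show single arrays, small differences or levels near the cut. Batches were not tested, since scan dates and slides were unknown.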

Additional observations from a re-analysis of the deposited data

How the results depend on the processing

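Direction held for Fmo1, Fmo2 and Fmo4 (lower) and for Fmo5 (higher) under every alternative run: intensity filter, probe choice, quantile normalization again, centring, variance prior, array weights, replicate block, small RNA score and single arrays left out. Fmo4 lay below the 75th percentile filter and gave no value there. Leaving out 1 array at a time gave −0.61 to −0.20 in Fmo1, −1.13 to −0.41 in Fmo2, −1.03 to −0.38 in Fmo4 and 0.05 to 0.38 in Fmo5. Array quality weights were the exception among calls. They gave a weight of 39.5 to Vascepa replicate 2 and at most 2.33 to the others, the fit stopped before it converged, and 4100 genes passed, 30.4% of those tested (limma). All 4 members passed there, Fmo1 at −0.42, Fmo2 at −0.77, Fmo4 at −1.23 and Fmo5 at 0.36 (limma, adjusted p = 0.0132, 0.0203, 0.00365 and 0.0311, against 0.306 to 0.9999 in the other alternatives), and the cause was not tested. The small RNA score gave 2 genes, neither a member.

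The 362 genes at an unadjusted p under 0.05 became 757 without a filter and 106 with the 75th percentile filter, where the number of genes tested differed, 5902 with array weights and 816 with the small RNA score. Leaving out 1 array gave from 141 to 2018, the extremes coming from the removal of vehicle replicate 3 and of Vascepa replicate 1. Removing vehicle replicate 1 left 198 and removing Vascepa replicate 2 left 221. Of the 362, 39.0% were higher. This was 16.9% with arrays centred on the median of all probes and 66.9% with arrays centred on the median of the genes tested, an alternative added after seeing the data. The all-gene median difference of −0.06 became −0.14 and 0.04. Under these centrings Fmo1 was −0.49 and −0.32 and Fmo5 0.10 and 0.28.

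The replicate numbers share only a number. Deviations of same-numbered arrays correlated at 0.61, 0.11 and −0.13, and 3 of 6 arrays correlated best with their own number. The replicate block gave 438 genes at an unadjusted p under 0.05 and 0 past the adjusted threshold, and the members kept their values of −0.42, −0.67, −0.71 and 0.18 (limma, adjusted p of 0.946 to 0.949). The contrast of Fmo2 and Fmo4, 0.04, was between −0.24 and 0.40 with 1 array left out and reversed in 4 of these 6 cases. The other 5 pair contrasts kept their sign with 1 array left out and with quantile normalization again, alternatives added after seeing the data.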
